A study of Homo sapiens with 6 samples.

Results

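Metalloproteinases that cut the extracellular matrix, and the inhibitors that hold them in check, were followed in SKOV3 cells, a human ovarian cancer cell line, after siRNA against the long non-coding RNA DNM3OS. The genes were chosen by symbol alone: all protein-coding genes named MMP, TIMP, ADAM or ADAMTS followed by a number. This gave 66 genes, of 34834 genes with a quantified transcript, with 23 in the MMP family, 4 in the TIMP family, 20 in the ADAM family and 19 in the ADAMTS family. Enough reads for a test fell on 23 of them, and 11814 genes were tested in all. Both groups were SKOV3 cells that received 50 nM of siRNA and were sampled after 48 h. The 3 knockdown samples received a pool of siRNAs against DNM3OS, and the 3 control samples received a pool of non-targeting siRNAs. The study used this knockdown to ask whether DNM3OS contributes to the epithelial-to-mesenchymal transition and to invasion in ovarian cancer. DNM3OS itself was not analysed here, so the extent of the knockdown was not measured in these values. Nothing in the labels says that the samples of a group came from separate cultures, so that p-values measure the spread between these samples, which may be technical.

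Matrix metalloproteinases (MMPs) are secreted or membrane-bound zinc enzymes that are made as inactive proforms and, once cleaved, degrade collagens, laminins, proteoglycans and many other extracellular proteins. Tissue inhibitors of metalloproteinases (TIMPs) bind the active site and block it. ADAM proteins are membrane proteins, and those with an intact zinc site release growth factors, cytokines and adhesion molecules from the cell surface, while others lack the catalytic residues and act in adhesion. ADAMTS proteins are secreted relatives that cleave proteoglycans, process procollagens or assemble matrix. In ovarian cancer these proteases are studied for their part in detachment from the ovary and in invasion of the mesothelial lining.

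The libraries were shallow for genes of low level. The deposited estimated counts summed to between 1610937 and 1995888 per sample, and between 1523046 and 1868325 of these fell on annotated genes. In CPM, the count scaled to the size of the library, 3 counts corresponded to between 1.61 and 1.97. That is before the further normalization that the other CPM values given here carry. PLLP alone held between 15.7% and 22.2% of the counts on genes. Of 12 epithelial and ovarian cancer markers, 8 were tested, with between 1195 and 2566 counts of KRT8 and between 311 and 872 of ERBB2, while MUC1 was listed at 0 in every sample. The other tested markers were lower: CD24 had 71 to 190 counts, KRT18 38 to 165 and KRT19 19 to 184. PAX8 had 26 to 46, CLDN4 28 to 40 and EPCAM 16 to 32. The summed level of the 12 markers was between 1025 and 2377 CPM, of which KRT8 alone had between 782 and 1801. The summed level of 10 leukocyte markers was between 133 and 159 CPM, that of 10 fibroblast markers between 48.2 and 81.2 CPM and that of 6 endothelial markers between 27.4 and 41.4 CPM, with CD14, ITGAM and TEK at 0 in every sample. All 12 housekeeping genes examined had a lower mean in the knockdown, with a median log2 fold change of −0.70, although 0 of 12 passed the threshold. Their summed level was 478, 1466 and 1483 CPM in knockdown samples 1, 2 and 3, and 2510, 999.7 and 2110 CPM in control samples 1, 2 and 3, so that knockdown sample 1 stood apart. The libraries were made with a stranded kit, but the strand setting of the quantification is not given in the sources used here. Genes that every cell uses were low: ACTB, for beta-actin, had 36 to 181 counts per sample, GAPDH had 27 to 414, and the 86 ribosomal protein genes together held between 0.232% and 0.543% of the counts on genes. PTPRC, the leukocyte marker CD45, had 91 to 148 counts in these cancer cells. Without a strand setting, reads from a gene and from a gene on its opposite strand cannot be told apart. Whether the values below measure sense transcripts was not tested, and the levels are given as listed.

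Levels were compared between genes in TPM, a transcript abundance that accounts for length. ADAM32, a member of the ADAM family without the catalytic zinc site that is best known from testis, was listed highest, with a mean of 130 TPM over the 6 samples and a range of 105 to 189. MMP24, the membrane-type enzyme MT5-MMP that is best known from the nervous system, had a mean of 123 TPM (range 107 to 136), and the ranges of these leading genes overlapped. Next was ADAM10, the alpha-secretase that sheds Notch receptors and cadherins, at 48.6 TPM (27.8 to 69.3), and its highest sample lay below the lowest sample of MMP24. From ADAM10 downwards the ranges of neighbouring genes overlapped.

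ADAM15, a membrane protein with both a metalloproteinase domain and an integrin-binding motif, was listed at 39.2 TPM (30.8 to 51.3). MMP25, a membrane-type MMP anchored by glycosylphosphatidylinositol and best known from neutrophils, was at 30.3 TPM (21.8 to 49.1). ADAM17, the sheddase of tumour necrosis factor and of several ligands of the epidermal growth factor receptor, was at 27.5 TPM (23.9 to 30.5), the narrowest of these ranges. MMP13, a collagenase that cleaves fibrillar collagen, was at 26.2 TPM (15.6 to 49.3), the proteoglycan-cleaving ADAMTS9 at 18.6 TPM (8.15 to 28.7) and TIMP2, an inhibitor that also helps to activate MMP2 at the cell surface, at 17.1 TPM (7.61 to 23.0). TIMP2, the highest of the inhibitors, thus came after 8 protease-family genes.

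The families took unequal shares of the 16037 counts that fell on the 66 genes. ADAM genes held 53.4% of these counts, MMP genes 34.2%, ADAMTS genes 9.79% and TIMP genes 2.57%. ADAM32 alone held 34.0% and MMP24 held 23.2%. Per sample, the 66 genes together held 3673, 2407 and 2082 counts in the knockdown and 2651, 2636 and 2588 in the controls. In TPM their sum was 739, 605 and 553 in the knockdown against 621, 647 and 649 in the controls, so that the groups overlapped, with knockdown sample 1 highest and knockdown sample 3 lowest.

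Several of the best studied matrix proteases were hardly seen. Of the 66 genes, 43 did not reach the minimum for a test, and 8 of these were listed at 0 in every sample. They were MMP14, the membrane-type enzyme that activates MMP2, MMP26, MMP27, TIMP3, the inhibitor that binds to the matrix, ADAM7, ADAM20, ADAM30 and ADAMTS20. The other 35 untested genes had a median of 15 counts summed over the 6 samples, and 15 of them had at most 3 counts in any sample. The highest count of an untested gene in a single sample was 15, in ADAM21 and in MMP9. MMP9, a gelatinase that degrades type IV collagen, had 7, 10 and 8 counts in the knockdown and 7, 15 and 4 in the controls. MMP2, the other gelatinase, had 0, 0 and 1 counts against 1, 0 and 2. MMP23B, also below the minimum, has a near-identical copy, MMP23A, between which reads can be split, so its count is uncertain.

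**Figure D1:**
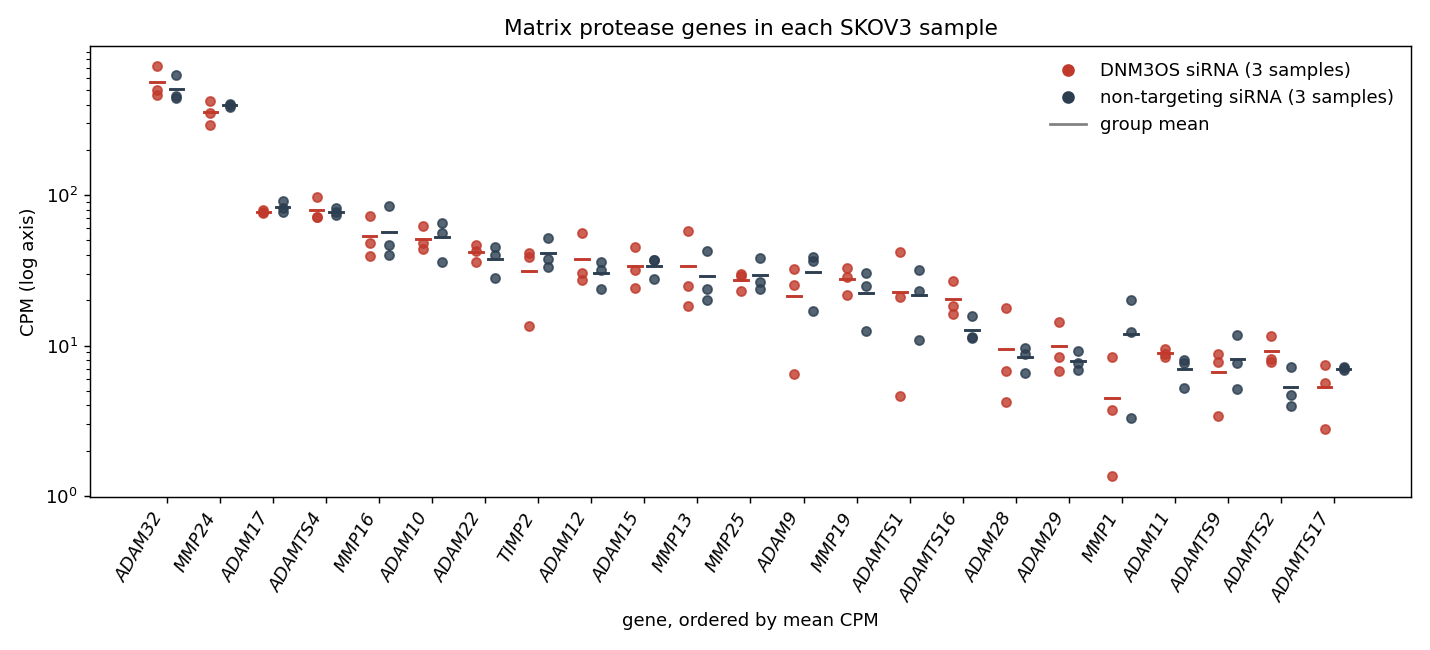
Level of the 23 tested genes in each sample (vertical axis, CPM after normalization, log axis), ordered by mean level along the horizontal axis, with a point for each of the 3 knockdown and 3 control samples and a bar at each group mean. ADAM32 and MMP24 lie above all other genes, and the points of both groups overlap in all genes except ADAM11, ADAMTS16 and ADAMTS2.

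Much of the signal of some genes fell on transcripts that are not annotated to make the full protein. In ADAM32 (chr8:39106990-39284917, plus strand, GRCh38), 98.8% of the counts fell on 1 retained-intron transcript of 6871 bases, ENST00000518259, and 0.934% on protein-coding transcripts. ADAM15 (chr1:155050566-155062775, plus strand) had 2.10% of its counts on protein-coding transcripts, and its leading transcript, with 39.0%, was again of the retained-intron class. In MMP19, an MMP that cleaves components of basement membranes, 99.6% of the counts were on 1 transcript annotated to undergo nonsense-mediated decay, ENST00000548882. All counts of ADAM29, another member without the catalytic zinc site, were on a transcript with no defined coding sequence. The level given for these 4 genes is therefore almost wholly that of transcripts outside the protein-coding class.

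Of the 23 tested genes, those 4 (17.4%) had under 5% of their counts on protein-coding transcripts, against 10.1% of the 10612 tested protein-coding genes. At the other end, 12 of 23 (52.2%) had over 95% on protein-coding transcripts, against 37.9%, and these included MMP1, MMP13, MMP16, MMP24, ADAM17, ADAMTS2, ADAMTS4 and ADAMTS16. Only 1 transcript, a protein-coding one, was quantified for MMP1 and for MMP24, and 2, both protein-coding, for MMP13. The share of these genes was therefore fixed at 100% and does not show where their reads came from. Between these ends lay ADAM10 with 77.7%, TIMP2 with 71.8%, MMP25 with 67.4%, ADAMTS1 with 51.2% and ADAMTS9 with 24.0%. Most counts of ADAMTS9 (74.9%) were on a decay-annotated transcript of 597 bases, which raises its TPM relative to its 5 to 19 counts per sample.

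**Figure D2:**
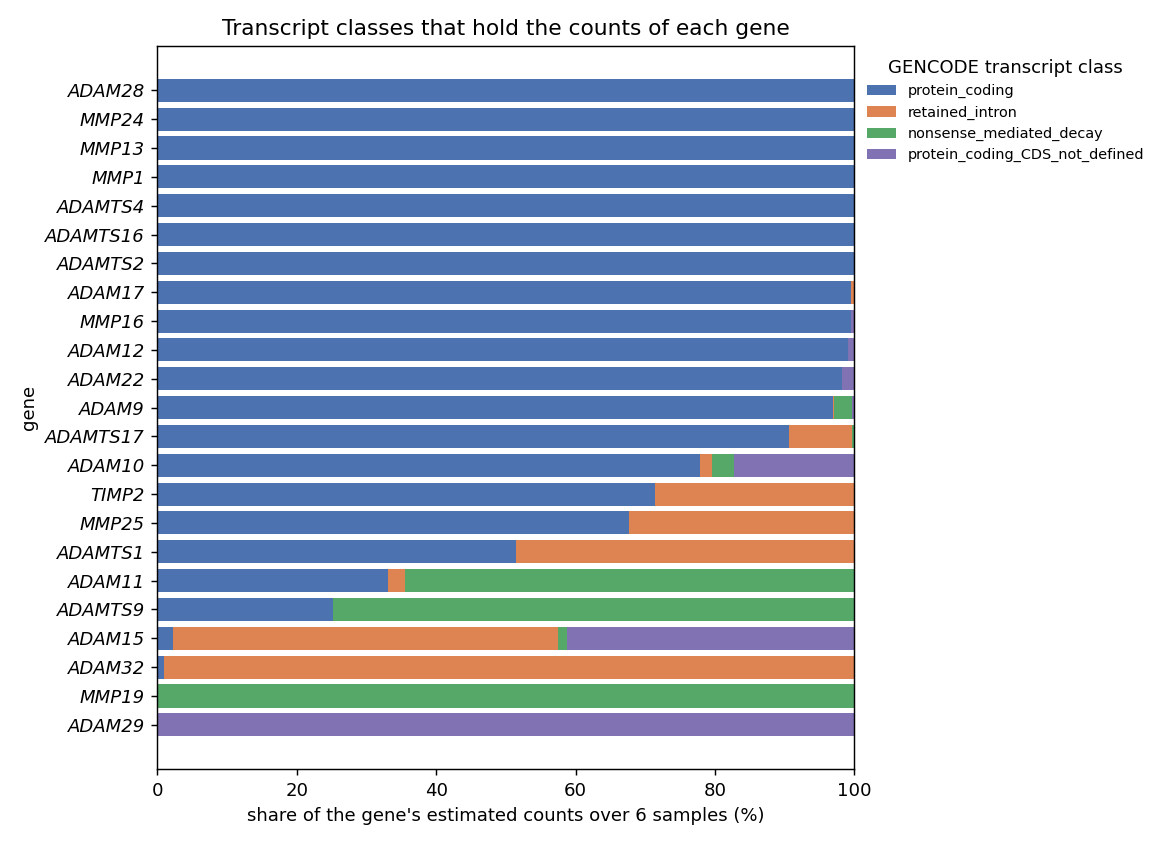
Share of each gene's estimated counts over the 6 samples (horizontal axis, percent) that fell on each GENCODE transcript class, for the 23 tested genes. ADAM32 is nearly all retained intron, MMP19 nearly all nonsense-mediated decay and ADAM29 all without a defined coding sequence, while 12 genes have over 95% on protein-coding transcripts. For MMP1, MMP13 and MMP24 no other class was quantified.

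Exons of a gene on the opposite strand lay under some exon bases of 12 of the 23 tested genes (52.2%), against 45.3% of all tested genes. The overlap covered 30.6% of the exon bases of MMP25 (chr16:3046062-3060726, plus strand), which has the antisense gene MMP25-AS1. It covered 22.1% in MMP24 (chr20:35226690-35276998, plus strand), which has MMP24OS on the other strand, 17.6% in MMP19, 11.7% in ADAM17 (chr2:9488486-9556732, minus strand) and 8.14% in MMP1. The gene opposite ADAM17, the esterase gene IAH1, had between 717 and 882 counts per sample, against 110 to 170 in ADAM17. TMEM198B, opposite MMP19, had 6 to 20 counts per sample and WTAPP1, opposite MMP1, had 3 to 21. MMP25-AS1 and MMP24OS had no quantified transcript, so their own reads could not be counted. What these partners contributed to the counts was not tested.

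A cluster of 9 genes of the MMP family lies on chromosome 11, where MMP7, MMP20, MMP27, MMP8, MMP10, MMP1, MMP3, MMP12 and MMP13 follow each other on the minus strand (chr11:102520508-102955732). Of these 9 genes only MMP1 and MMP13 had enough counts for a test. Over the 6 samples the cluster's collagenases MMP13, MMP1 and MMP8 had 328, 83 and 4 counts. MMP7, matrilysin, had 49 counts, and MMP10 and MMP3, the stromelysins, had 13 each. MMP20, MMP12 and MMP27 had 6, 5 and 0. All counts of MMP7 were on a retained-intron transcript, those of MMP8 on a decay-annotated one and those of MMP20 on one with no defined coding sequence. Neighbours in the cluster therefore differed widely in the number of reads they took.

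Promoters of the cluster's MMP genes are known for a TATA box and for sites of AP-1, the dimer of FOS and JUN proteins. RefSeq promoter windows of GRCh38.p14, from 250 bases before to 50 bases after the start, were matched for 39 of the 66 genes. The AP-1 letters TGACTCA or TGAGTCA, which are each other's reverse complement so that both strands are covered, were in 4.95% of all 35116 windows and in 1 of the 40 windows of these genes, that of MMP7. The TATA letters TATAAA or TTTATA were in 11.5% of all windows and in those of 8 of these genes, ADAM21, ADAMTS10, MMP7, MMP8, MMP10, MMP20, MMP21 and MMP26. Genes without a matched window were not searched, so a cluster gene not named here may lack a window rather than the letters. The windows of MMP10, which the study plots, and of MMP7, which has both motifs, are shown 5′ to 3′ on the gene's strand, with the motifs in capitals. That of MMP10 is chr11:102780579-102780878 and that of MMP7 is chr11:102530698-102530997, both on the minus strand.
MMP10: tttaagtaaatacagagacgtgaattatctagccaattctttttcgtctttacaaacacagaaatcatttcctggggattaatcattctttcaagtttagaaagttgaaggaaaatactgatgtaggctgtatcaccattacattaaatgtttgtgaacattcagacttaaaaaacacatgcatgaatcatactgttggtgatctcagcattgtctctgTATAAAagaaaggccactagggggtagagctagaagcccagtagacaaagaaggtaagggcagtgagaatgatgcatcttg
MMP7: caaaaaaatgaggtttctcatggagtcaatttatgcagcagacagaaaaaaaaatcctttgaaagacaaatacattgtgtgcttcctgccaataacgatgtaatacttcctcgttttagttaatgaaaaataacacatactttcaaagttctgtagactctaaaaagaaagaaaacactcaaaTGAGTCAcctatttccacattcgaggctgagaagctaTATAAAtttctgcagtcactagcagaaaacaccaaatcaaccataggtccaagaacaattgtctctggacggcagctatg
TATAAA began 31 bases before the start in MMP10 and 30 bases before it in MMP7, and TGAGTCA began 67 bases before the start in MMP7. These are matches of letters, not measured binding sites.

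After DNM3OS siRNA, 0 of the 23 tested genes changed past the threshold of the study's methods, which asks for a 2-fold change and for an adjusted p below 0.05 by edgeR's exact test. The adjusted p was 1 for each of the 23 genes. The background was as sparse: 1 of 11814 genes (0.00846%) passed in the lower direction and 0 (0%) in the higher. With that threshold the study itself reports lowered genes enriched in pathways such as focal adhesion and ECM-receptor interaction, unlike the sparse result here. The cause of this difference was not tested. By direction alone, 11 of the 23 had a lower and 12 a higher estimate in the knockdown, with a median log2 fold change of 0.03, beside 0.0042 over all tested genes. An unadjusted p below 0.05 was found for 2 of 23, MMP1 and ADAMTS16, by the exact test, while 2.92% of all tested genes had such a p, and for 1 of 23 by each of edgeR's quasi-likelihood test and DESeq2.

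Groups that do not overlap were counted next, since with 3 samples against 3 an exact permutation test of a single gene cannot give a p below 0.1. The 3 knockdown samples lay below all 3 controls in 0 of 23 genes, against 3.56% of all tested genes. They lay above all 3 controls in 3 of 23, ADAM11, ADAMTS16 and ADAMTS2, against 4.42% of all tested genes.

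**Figure D3:**
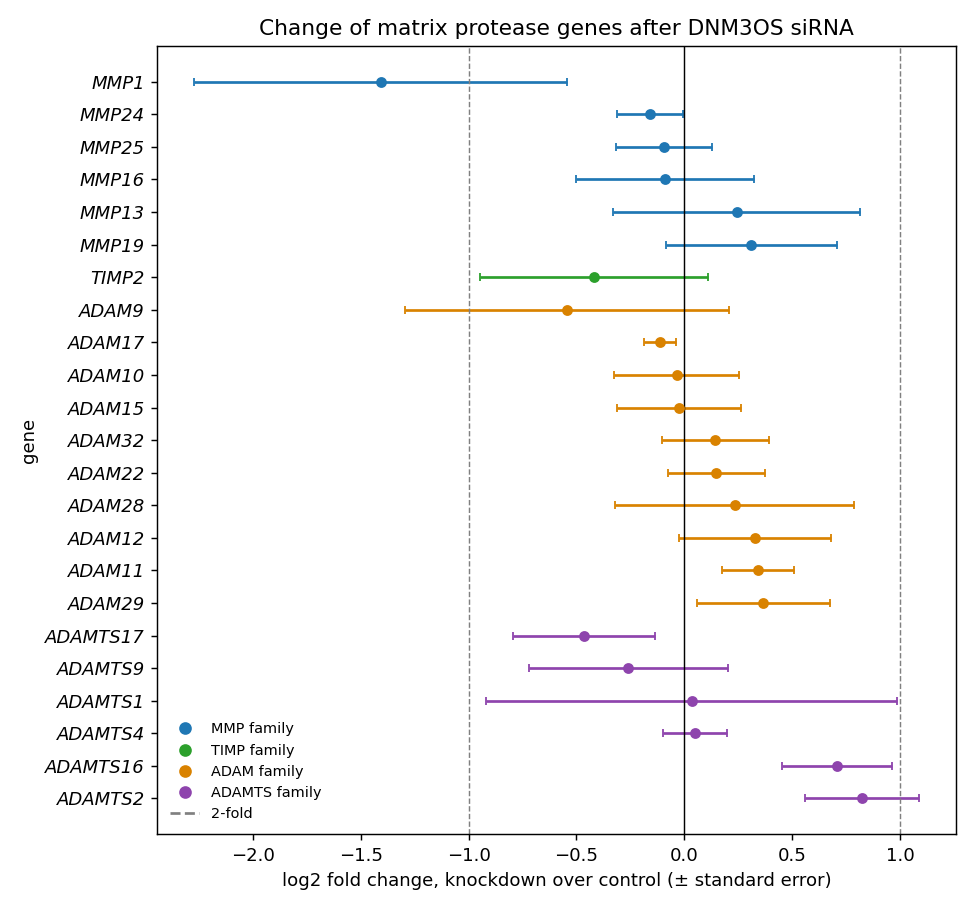
Log2 fold change of each tested gene, knockdown over control (horizontal axis), with bars of 1 standard error from 3 samples a group, coloured by family, and dashed lines at 2-fold in each direction. MMP1 alone lies beyond the line, at −1.41, with a wide error, and no gene passed the adjusted test.

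Among the collagenases, MMP1, the interstitial collagenase, had the lowest estimate of the 23 genes. MMP1 (ENSG00000196611, chr11:102789401-102798160, minus strand) had 8, 2 and 12 counts in the knockdown and 35, 5 and 21 in the controls. In CPM these were 3.72, 1.35 and 8.42 against 19.9, 3.27 and 12.4, so that control sample 2 lay within the range of the knockdown samples. The means were 4.50 ± 3.60 (SD, n = 3) and 11.8 ± 8.34 CPM (SD, n = 3). The log2 fold change was −1.41 (SE 0.87), with an unadjusted p of 0.0491 by edgeR's exact test that did not survive adjustment (adjusted p = 1), and the exact two-sided permutation test gave p = 0.3. Without control sample 2 the log2 fold change was −1.84 and the adjusted p 0.286 by edgeR's exact test. Without control sample 1 it was −0.82 (adjusted p = 1), and with the housekeeping level as a covariate −0.57 by the quasi-likelihood test. The housekeeping level was itself lower on average in the knockdown, so this covariate partly follows the group. Here and below it may take up an effect of the knockdown as well as other differences between samples. MMP1 had low counts that varied several-fold within each group.

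MMP13 (chr11:102942995-102955732, minus strand), the other tested collagenase, had 57.7, 25.0 and 18.2 CPM in the knockdown and 23.9, 42.6 and 20.0 in the controls. Knockdown sample 1 was the highest and knockdown sample 3 the lowest of all 6, and the log2 fold change was 0.24 (SE 0.57). It turned to −0.40 without knockdown sample 1 and to −0.50 with the housekeeping level as a covariate. MMP10, stromelysin 2, which activates other MMPs, had 0, 1 and 1 counts in the knockdown and 3, 2 and 6 in the controls. It had 2 counts in all against 11, its groups did not overlap, and it was below the minimum for the test. The study plots MMP1 and MMP10 for reduced DNM3OS in a meta-analysis that pools these samples with patient RNA and protein profiles. The choice of MMP1 and MMP10 is therefore not independent of these values. Of the other stromelysins, MMP3 had 6, 1 and 0 counts against 4, 1 and 1.

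When the minimum on low counts was dropped, 58 of the 66 genes entered the fit, and MMP10 was the 1 gene that lay wholly below the controls, against 3.17% of 22748 genes. Wholly above the controls were 7 of the 58, against 4.25% of those genes, namely ADAM11, ADAM33, ADAMTS16, ADAMTS2, ADAMTS7, MMP20 and MMP28. Counts were low in the members added in this way: ADAM33 had 7, 6 and 6 against 3, 3 and 5, and ADAMTS7 had 3, 3 and 3 against 0, 1 and 2. MMP28 had 2, 2 and 2 against 1, 1 and 0, and MMP20 had 2, 1 and 2 against 1, 0 and 0. The adjusted p was 1 for all 58 by edgeR's exact test.

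Membrane-type MMPs, which act at the cell surface, had estimates close to 0 in the 3 of 6 genes tested. MMP24 had 293, 420 and 350 CPM in the knockdown and 405, 384 and 397 in the controls. The controls were within a narrow band, 395 ± 10.8 CPM (SD, n = 3), while the knockdown samples were spread on both sides of it, 354 ± 63.6 CPM (SD, n = 3), and the log2 fold change was −0.16 (SE 0.15). MMP25 was at 27.3 ± 3.63 against 29.5 ± 7.49 CPM (SD, n = 3 each), with a log2 fold change of −0.09 (SE 0.22). MMP16, the membrane-type enzyme MT3-MMP, was at 53.5 ± 17.4 against 57.0 ± 24.0 CPM (SD, n = 3 each), with a log2 fold change of −0.09 (SE 0.41). MMP19, which is not a membrane-type MMP, had 32.6, 28.4 and 21.8 CPM against 12.5, 30.1 and 24.7, where control sample 1 was the lowest. The log2 fold change of MMP19 was 0.31 (SE 0.40).

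The inhibitors gave 1 testable gene. TIMP2 (ENSG00000035862, chr17:78852977-78925387, minus strand) had 13.5, 41.2 and 38.6 CPM in the knockdown and 51.8, 33.4 and 37.6 in the controls. Knockdown sample 1 was far below the other 5, which overlapped, and the log2 fold change was −0.42 (SE 0.53, unadjusted p = 0.307 and adjusted p = 1 by edgeR's exact test). It was −0.03 without knockdown sample 1 and 0.079 with the housekeeping level as a covariate. TIMP1, a secreted inhibitor of most MMPs, had 2, 4 and 7 counts in the knockdown and 7, 2 and 8 in the controls. TIMP4 had 8, 4 and 4 counts against 9, 2 and 4, and TIMP3 was at 0 in each sample. Neither TIMP1 nor TIMP4 reached the minimum for a test.

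ADAM proteases with an intact zinc site were tested for 6 of 12 genes, with 4 estimates below and 2 above 0. When the housekeeping level was added as a covariate, ADAM9, ADAM10 and ADAM15 turned above 0 and ADAM12 below 0. The value of ADAM28 with that covariate is not given here. ADAM17 had 79.1, 75.6 and 77.2 CPM in the knockdown and 82.6, 91.7 and 77.1 in the controls. Its standard error was the smallest among the 23 genes, with a log2 fold change of −0.11 (SE 0.07). ADAM10 (ENSG00000137845, chr15:58588809-58749791, minus strand) was at 51.2 ± 9.74 against 52.3 ± 14.8 CPM (SD, n = 3 each), a log2 fold change of −0.04 (SE 0.29). ADAM15 was at 33.7 ± 10.7 against 33.9 ± 5.51 CPM (SD, n = 3 each), a log2 fold change of −0.02 (SE 0.29). The means of both sheddases thus differed by far less than their spread.

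ADAM9, a widely expressed membrane protease, had 6.51, 32.4 and 25.3 CPM in the knockdown and 36.5, 17.0 and 38.8 in the controls. Its log2 fold change of −0.54 (SE 0.75) was set by knockdown sample 1, since without that sample the estimate was −0.09. ADAM12, which is linked to fibrosis and cleaves binding proteins of insulin-like growth factors, had 55.8, 30.4 and 27.4 CPM against 23.9, 36.0 and 31.8, with a log2 fold change of 0.33 (SE 0.35). Here knockdown sample 1 was the highest, and without it the estimate was −0.06. ADAM28 was at 9.55 ± 7.15 against 8.35 ± 1.62 CPM (SD, n = 3 each).

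In the ADAM members without the catalytic site, all 4 tested estimates were above 0, at 0.14 to 0.37 on the log2 scale. However, ADAM29 and ADAM32 turned below 0 when the housekeeping level was added as a covariate. The value of ADAM22 with that covariate is not given here. ADAM32 had 717, 502 and 466 CPM in the knockdown and 445, 626 and 456 in the controls, with a log2 fold change of 0.14 (SE 0.25). ADAM11 (ENSG00000073670, chr17:44758988-44781846, plus strand), best known from brain, had 8.84, 9.46 and 8.42 CPM against 7.97, 5.24 and 7.65, and all 3 knockdown samples were above the controls. Its log2 fold change was 0.34 (SE 0.17, unadjusted p = 0.451 and adjusted p = 1 by edgeR's exact test). Between 8 and 19 counts per sample lie behind ADAM11, and they were split between transcripts. ENST00000355638, annotated to undergo decay, had 17.6, 3.98 and 3.76 estimated counts in the knockdown and 0 in each control. ENST00000535346, annotated as protein-coding, had 0, 4.61 and 6.30 in the knockdown and 0, 5.28 and 0 in the controls. ENST00000200557 and ENST00000587773 went the other way. ENST00000200557, annotated as protein-coding, had 0 in each knockdown sample and 2.58, 0 and 7.73 in the controls. ENST00000587773, also annotated to undergo decay, had 0, 5.40 and 1.94 against 11.4, 2.20 and 5.27. The split between transcripts was not tested. ADAM29 had 14.4, 6.75 and 8.42 CPM against 6.83, 9.17 and 7.65, with a log2 fold change of 0.37 (SE 0.31). ADAM22, a neuronal receptor of LGI1, was at 41.7 ± 5.49 against 37.8 ± 8.66 CPM (SD, n = 3 each).

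ADAMTS genes held the largest positive estimates. ADAMTS2 (ENSG00000087116, chr5:179110853-179345461, minus strand), which removes the amino-terminal propeptide of fibrillar procollagens, had 11.6, 8.10 and 7.72 CPM in the knockdown and 3.99, 7.20 and 4.71 in the controls. The 3 knockdown samples lay above the controls, although knockdown sample 3 exceeded control sample 2 by little. The log2 fold change was 0.82 (SE 0.27, unadjusted p = 0.076 and adjusted p = 1 by edgeR's exact test), and 0.45 with the housekeeping level as a covariate. ADAMTS16 (ENSG00000145536, chr5:5140330-5320304, plus strand), studied for its role in gonads and in blood pressure, had 27.0, 16.2 and 18.2 CPM against 11.4, 15.7 and 11.2, and the groups were again separate by a narrow margin. Its log2 fold change was 0.71 (SE 0.26, unadjusted p = 0.0462 and adjusted p = 1 by edgeR's exact test), and 0.36 with that covariate. For both genes the exact two-sided permutation test gave 0.1, the smallest p that 3 samples against 3 allow. The counts behind them were 7 to 25 per sample in ADAMTS2 and 19 to 58 in ADAMTS16.

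The proteoglycan-cleaving ADAMTS genes were spread around 0. ADAMTS4, aggrecanase 1 (chr1:161184302-161199054, minus strand), had 96.7, 71.6 and 71.6 CPM in the knockdown and 74.0, 77.3 and 81.8 in the controls, with a log2 fold change of 0.05 (SE 0.15). ADAMTS1 (chr21:26835755-26845409, minus strand), which cleaves versican and aggrecan, had 4.65, 20.9 and 42.1 CPM against 10.8, 22.9 and 31.8, and a log2 fold change of 0.03 with an SE of 0.95. No gene of the 23 varied more within the knockdown group than ADAMTS1 relative to its mean. ADAMTS9 had 8.84, 3.38 and 7.72 CPM against 5.13, 11.8 and 7.65, a log2 fold change of −0.26 (SE 0.46). ADAMTS17, whose loss causes a short stature syndrome with lens dislocation, had 2.79, 7.43 and 5.61 CPM against 6.83, 7.20 and 7.06, a log2 fold change of −0.47 (SE 0.33). Its controls were at 7.03 ± 0.185 CPM (SD, n = 3), and knockdown sample 2 was above all of them.

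Knockdown sample 1, which had the lowest housekeeping level, was also at the end of the range for many of these genes. It was the lowest of the 6 samples for ADAM9, ADAM15, ADAMTS1, ADAMTS17, MMP24 and TIMP2 (6 of 23, 26.1%, against 29.8% of all tested genes). It was the highest for ADAM12, ADAM28, ADAM29, ADAM32, ADAMTS2, ADAMTS4, ADAMTS16, MMP13 and MMP19 (9 of 23, 39.1%, against 28.0% of all tested genes). Of the housekeeping genes, 11 of 12 were lowest in that sample. The part of that sample's composition in these values was not tested. Without it, the groups remained separate for ADAM11, ADAMTS2 and ADAMTS16 by construction, and their log2 fold changes were 0.36, 0.60 and 0.45.

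**Figure D4:**
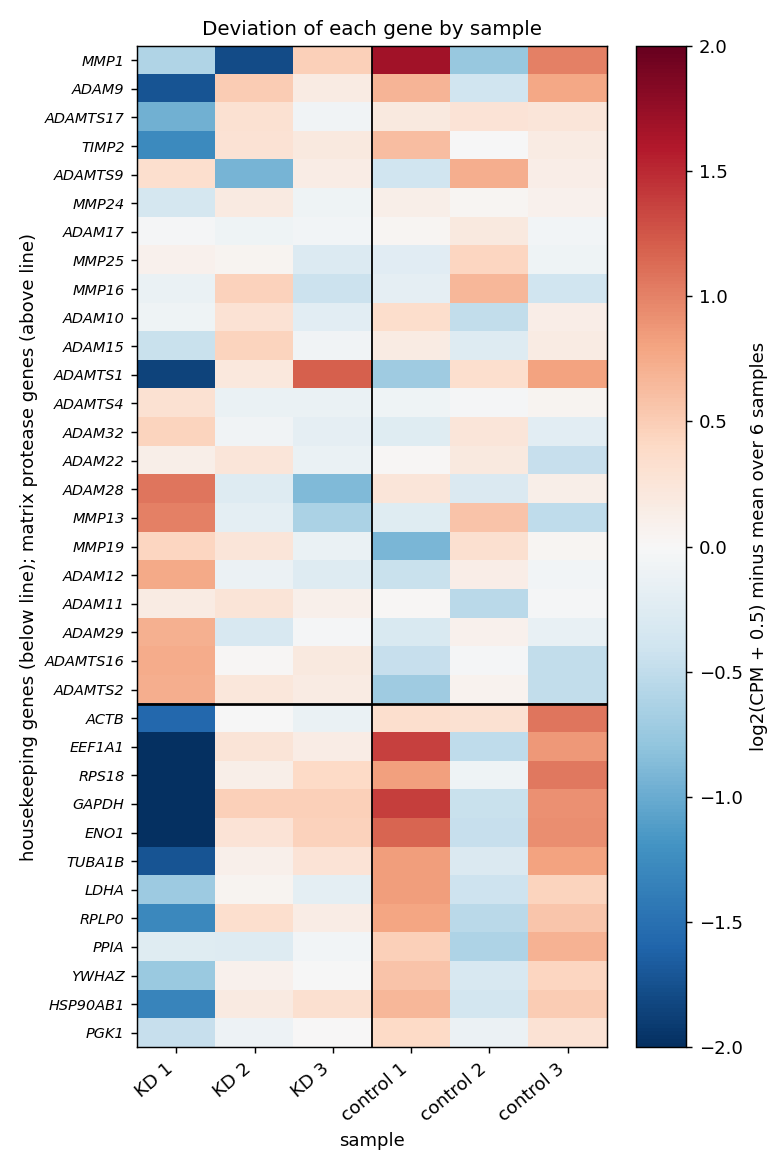
Deviation of each gene from its own mean over the 6 samples (colour, log2 of CPM plus 0.5, with values beyond the ends of the scale drawn in the end colour), with samples along the horizontal axis, the 23 tested protease and inhibitor genes above the line and 12 housekeeping genes below it. In knockdown sample 1 the housekeeping genes are low, while the protease genes are low for 6 and high for 9 of 23.

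Genes that work with these proteases were read from the same fit, and 0 passed the threshold in any of the 7 lists. The knockdown lay wholly below the controls in 1 of 6 plasminogen activator genes tested and 1 of 10 other MMP regulators. It also did so in 1 of 11 AP-1 and ETS genes. It lay wholly above in 2 of 7 ADAM partners and 1 of 5 ADAMTS-like genes. The shed proteins (17 tested) and other matrix proteases (15 tested) had 0 either way. Over all tested genes the shares were 3.56% below and 4.42% above. Named genes were those of smallest p per list. Of 9 plasminogen activator genes, whose product plasmin activates pro-MMPs, 6 were tested, with 3 estimates below and 3 above 0. PLG itself had 20, 14 and 10 counts in the knockdown and 21, 16 and 19 in the controls, which do not overlap in CPM, with a log2 fold change of −0.37 (SE 0.13). PLAU, urokinase, had a log2 fold change of −0.47 (SE 0.82), which turned to 0.40 with the housekeeping level as a covariate. Of 14 other activators and inhibitors of MMPs, 10 were tested, with 5 below and 5 above 0.

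RECK, a membrane-anchored inhibitor of several MMPs, had 4.19, 6.08 and 2.81 CPM in the knockdown and 9.11, 7.20 and 7.06 in the controls. All 3 knockdown samples lay below the controls, and the log2 fold change was −0.83 (SE 0.27, unadjusted p = 0.090 and adjusted p = 1 by edgeR's exact test). It rests on 4 to 16 counts per sample. PCSK5, a proprotein convertase, had a log2 fold change of 0.48 (SE 0.43), and BSG, the inducer of MMPs known as EMMPRIN, −0.52 (SE 0.63), which turned to 0.21 with that covariate.

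Of 10 genes for partners of the ADAM sheddases, such as tetraspanins and iRhoms, 7 were tested, with 2 below and 5 above 0 and a median log2 fold change of 0.19. TSPAN14, a tetraspanin that takes ADAM10 to the cell surface, had 103, 116 and 121 CPM in the knockdown and 84.9, 98.9 and 97.7 in the controls, which do not overlap. Its log2 fold change was 0.27 (SE 0.10, unadjusted p = 0.206 and adjusted p = 1 by edgeR's exact test). PACS2, a sorting protein, was at 0.30 (SE 0.26) and RHBDF2, the iRhom2 that carries ADAM17, at 0.22 (SE 0.27).

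Among 26 genes for proteins that ADAMs shed, 17 were tested, and 12 of these had estimates below 0, with a median log2 fold change of −0.12 beside 0.0042 over all tested genes. CD44, the hyaluronan receptor, is also plotted in the study's meta-analysis. It had 6.51, 14.2 and 12.6 CPM in the knockdown and 25.6, 9.17 and 31.8 in the controls, where control sample 2 lay among the knockdown samples. Its log2 fold change was −1.02 (SE 0.60, unadjusted p = 0.040 and adjusted p = 1 by edgeR's exact test). ALCAM, an adhesion molecule, was at −0.88 (SE 0.67) and MET, the receptor of hepatocyte growth factor, at −0.57 (SE 0.44). In these 3 genes, as in the housekeeping genes, control samples 1 and 3 were the highest. Whether they share a cause was not tested.

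ADAMTS-like genes, which resemble ADAMTS proteins without the protease domain, were tested for 5 of 7, with 1 below and 4 above 0. THSD4, a fibrillin-binding member, had 24.6, 25.0 and 25.3 CPM in the knockdown and 15.9, 17.0 and 22.4 in the controls, which do not overlap, with a log2 fold change of 0.43 (SE 0.14). ADAMTSL3 was at 0.29 (SE 0.39), or −0.20 with the housekeeping covariate, and PAPLN, papilin, at 0.12 (SE 0.11). Of 28 other matrix proteases, 15 were tested, with 6 below and 9 above 0. The lysosomal protease CTSD was at −1.06 (SE 0.95), which turned to 0.066 with the housekeeping covariate, the procollagen proteinase BMP1 at −0.53 (SE 0.41) and its relative TLL2 at 0.47 (SE 0.31).

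Of 17 genes for AP-1 and ETS factors, known regulators of MMP promoters, 11 were tested, with 6 below and 5 above 0 and a median log2 fold change of −0.16. ATF2 had 14, 13 and 6 counts in the knockdown and 20, 15 and 15 in the controls, which do not overlap in CPM, with a log2 fold change of −0.61 (SE 0.27). ETS2 was at −0.93 (SE 0.41) and ETS1 at 0.31 (SE 0.14). Each gene named from these lists had an adjusted p of 1 by edgeR's exact test.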

How the data were processed

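SKOV3 cells were profiled 48 h after transfection with 50 nM siRNA (3 knockdown and 3 non-targeting samples, grouped by their labels). The authors quantified reads of stranded, ribosomal RNA-depleted libraries with kallisto 0.43.0, and deposited for each of 173259 transcripts an estimated count without normalization, a TPM and an effective length. Strand and bias options are not given in the sources used here.

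For each GENCODE 44 gene the estimated counts of its transcripts were added (155518 transcripts matched, 17741 left out) and rounded. After filterByExpr (minimum count 10) and TMM scaling, the groups were compared by the exact test of edgeR, with Benjamini-Hochberg adjustment over all genes (edgeR 4.0.16, R 4.3.3). The threshold was a change of at least 2-fold with adjusted p below 0.05. CPM are TMM-scaled, and standard errors come from log2 CPM (prior count 2). Exact permutation tests are two-sided. The fit was also run on simulated counts, with changes set only in genes of higher counts than several of these. The simulation held no shift of a whole sample, so it does not cover low-count genes or such a shift.

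Members and lists were chosen with earlier results of these data known. Named genes were MMP1, MMP10, the TIMPs, the 4 genes of highest TPM per other family, genes past the threshold or without overlap, the 5 largest changes each way, and per list the 3 of smallest p, of which 1 is not reported here. Other genes were named for their counts after these were seen. Alternatives were the quasi-likelihood test with and without a replicate block, DESeq2 1.42.0, RLE, other filters, length-scaled counts, transcript and gene subsets, each sample left out and, added after seeing the data, the housekeeping level as covariate.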

Additional observations from a re-analysis of the deposited data

How the results depend on the processing

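In every alternative run, 0 of the tested matrix protease genes passed the threshold, with an adjusted p of at least 0.826, except that without control sample 2 the smallest was 0.286, in MMP1, by edgeR's exact test. Over all genes, the count past the threshold in the lower direction was 1 and became 0 with the quasi-likelihood test, with its replicate block, with DESeq2, without genes under an opposite-strand exon and with the housekeeping covariate, 2 with no filter or a filter of 1 CPM in 3 samples, 4 with length-scaled TPM counts and 3 with protein-coding transcripts only. In the higher direction it was 0 and became 2 with length-scaled counts, 2 with protein-coding transcripts and 1 with the covariate. Leaving out each sample gave between 0 lower without control sample 3 and 3 lower without knockdown sample 3, and 0 to 1 higher. Protease genes wholly below the controls went from 0 to 1 with no filter and 1 with the filter of 1 CPM, and to 0 to 2 with a sample left out (2 without knockdown sample 2 or control sample 2). Those wholly above went from 3 to 7 with no filter and 6 with the filter of 1 CPM, and to 3 to 4 with a sample left out. Over all tested genes, 4% lay wholly below and 4.46% wholly above with the filter of 1 CPM, and 6.02% to 15% and 6.73% to 12.8% with a sample left out, where fewer samples make separation more common. The larger counts without the filter come with more genes tested, and the cause of the other shifts was not tested.

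Directions of small estimates moved, and none of these genes was called. The housekeeping level was lower on average in the knockdown, so shifts with it as covariate may also take up an effect of the knockdown. With the housekeeping covariate the log2 fold change was 0.20 for ADAM10, −0.13 for ADAM12, 0.28 for ADAM15, −0.089 for ADAM29, −0.15 for ADAM32, 0.23 for ADAM9, −0.11 for ADAMTS4, −0.50 for MMP13, 0.079 for TIMP2, −0.20 for ADAMTSL3, 0.21 for BSG, 0.066 for CTSD and 0.40 for PLAU. With length-scaled counts it was −0.085 for ADAM12, −0.56 for ADAMTS1, 0.072 for ADAMTS9 and −0.039 for TLL2, and with protein-coding transcripts 0.10 for ADAM10 and 0.040 for MMP25. ADAMTS1 was −0.00026 with the quasi-likelihood test. With a sample left out, estimates spanned −0.23 to 0.15 for ADAM10, −0.064 to 0.52 for ADAM12, −0.30 to 0.19 for ADAM15, −0.039 to 0.57 for ADAM29, −0.063 to 0.33 for ADAM32, −0.80 to 0.54 for ADAMTS1, −0.11 to 0.13 for ADAMTS4, −0.54 to 0.10 for ADAMTS9, −0.40 to 0.64 for MMP13, −0.23 to 0.13 for MMP25, −0.10 to 0.55 for ADAMTSL3 and −1.30 to 0.060 for PLAU. MMP1 stayed between −2.14 and −0.82, ADAMTS16 between 0.45 and 0.89, ADAMTS2 between 0.60 and 1.10 and ADAM11 between 0.20 and 0.45 with a sample left out. With the housekeeping covariate these 4 were at −0.57, 0.36, 0.45 and 0.47.

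Replicate numbers showed no steady pairing of the samples: same-numbered samples had correlations of deviations of −0.40, −0.34 and 0.23, and knockdown sample 1 went most with control sample 2 (0.53). These deviations are taken from group means, and larger differences between samples can hide a small shared batch. Pairing is therefore not excluded. The fit with the replicate block called 0 genes in either direction over all genes and turned ADAMTS1 to −0.19.

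Of the 66 genes, 43 had too few counts for a test. The share of reads from opposite-strand genes was not measured.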
